A study of Homo sapiens with 6 samples.

Results

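Leukocyte adhesion ligands and B7 ligands are cell surface proteins through which a tissue cell is held by, or signals to, a white blood cell. This report describes 10 of their genes in ARPE-19 cells, listed by name, among the 37902 genes of the deposited table. The adhesion genes are ICAM1, ICAM2, ICAM3, ICAM5 and VCAM1, and the B7 family genes are CD274, PDCD1LG2, ICOSLG, CD276 and VTCN1. All 10 were found in the table by their Ensembl identifier.

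The ICAM proteins and VCAM1 carry immunoglobulin domains that bind integrins on leukocytes. ICAM1 binds the leukocyte integrins LFA-1 and Mac-1, and VCAM1 binds the integrin formed by ITGA4 and ITGB1. The B7 ligands bind receptors on T cells, where CD274 (PD-L1) and PDCD1LG2 (PD-L2) engage the inhibitory receptor PD-1, and ICOSLG engages the costimulatory receptor ICOS. In the retina, the pigment epithelium forms part of the outer blood-retinal barrier, and its ICAM1 and PD-L1 are known to be inducible by inflammatory cytokines.

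ARPE-19, a widely used human line, originated in the retinal pigment epithelium (RPE). The 6 libraries were 3 biological replicates of wildtype ARPE19 cells (WT) and 3 of the POLDIP2 knockout (POLDIP2 KO), all under regular maintenance and taken at day 3. The POLDIP2 KO line came from lentiviral delivery of Cas9 with an sgRNA against the POLDIP2 coding sequence and from puromycin selection, which the WT libraries' cells are not described to have undergone; the selected cells were expanded as a population, with no cloning step described. Stranded, polyadenylated RNA was sequenced, and the values are gene counts that the authors divided by a size factor for each library, called normalised counts here.

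Depth was 31532797 to 45795509 recovered reads per library. POLDIP2 itself had 3919 to 4827 normalised counts in the WT libraries and 1063 to 1248 in the POLDIP2 KO libraries. Its RNA was lower in every library labelled as knockout, and still present there. The study reports indels at the target site and no POLDIP2 protein on western blot of the knockout line, so these counts describe RNA only. Of 16 RPE markers, 12 had a mean of at least 10, of which 1 was lower in POLDIP2 KO without overlap, as 5.44% of all genes were. RPE65 was at 0 in every library while KRT8, KRT18, MITF and OTX2 were present, so the label was met by some of the listed markers only. Among 12 leukocyte markers, CD3E, CD3D, MS4A1 and NKG7 were at 0 in all libraries, PTPRC (CD45) had 0 in every WT library and 1.23, 3.26 and 6.95 normalised counts in POLDIP2 KO, and the summed level of the list was 2022 to 2318 in WT and 1967 to 2284 in POLDIP2 KO, most of it from CD68. The leukocyte markers CSF1R and LCP1 were lower in POLDIP2 KO, with CSF1R at 29.3 ± 16.9 and 10.496 ± 5.02 normalised counts without overlap. LCP1 was at 107 ± 115 and 29.0 ± 34.7, lower in 3 of 3 pairs (adjusted p = 0.00404 in DESeq2 with the replicate as a block, 0.913 in limma). CD14 had a higher mean in POLDIP2 KO, at 1.70 ± 1.54 in WT and 4.39 ± 1.87 in POLDIP2 KO, with overlap. Of the 5 leukocyte markers tested, 2 had a log2 fold change above 0. Of 9 endothelial markers, 3 had no more than 3 reads in any library, among them CDH5, which reached 0.945 normalised counts at most. The list was not silent, since 4 had a mean of at least 10 and were tested. Of these 4, 3 had a log2 fold change above 0, with a median of 0.02, and 0 were called, against 0.17% of all genes. The summed level was 732 to 1165 in WT and 628 to 1028 in POLDIP2 KO. Among 8 fibroblast and mesenchymal markers, COL1A2 was at 614 normalised counts in POLDIP2 KO replicate 1 against at most 9.45 elsewhere, and the summed level was 4294 to 9693 in WT and 4056 to 17416 in POLDIP2 KO. COL1A1 was higher in POLDIP2 KO in 3 of 3 pairs, by 1.70, 1.24 and 1.53 on the log2 scale, and was called by limma blocked on replicate (adjusted p = 0.0436) though not in the unblocked fit (0.981). DESeq2 with that block gave COL1A1 an adjusted p of 1.48e-21. Of the 6 tested markers in this list, 5 had a log2 fold change above 0, against 49.9% of all genes, with a median of 0.81. In the unblocked limma fit 0 of them were called, against 0.17% of all genes. ACTA2 was similar in replicate 1 of both lines, at 2879 and 3057. The part of these markers in the results was not tested, and estimates without POLDIP2 KO replicate 1 are given for ICAM1, ICOSLG and PDCD1LG2. In such bulk libraries, more cells with a transcript and more transcript per cell cannot be told apart.

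The genes differ in the start region that lies before them, where factors of inflammatory signalling are known to bind. RefSeq windows of GRCh38.p14 from 250 bases before the start to 50 after it were held for 8 of the 10 genes, and not for ICAM2 and PDCD1LG2. They were searched on both strands for GGNNNTTCC, a form of the kappa B motif of NF-kB, for TTCNNNGAA, the gamma-activated site of STAT factors, and for GAAANNGAA, a form of the IRF element. Among 35116 windows of the same length, 20.1% held the first, 7.66% the second and 8.11% the third, so a single match is common. The 250 bases before the start are printed 5′ to 3′ on the strand of the gene, with matched bases in capitals, for the gene with the largest difference between lines (ICAM1), the silent one (VCAM1), the only tested one with a lower mean in POLDIP2 KO (CD274) and the B7 ligand with the largest difference (ICOSLG).
ICAM1, chr19:10270870-10271119, plus strand: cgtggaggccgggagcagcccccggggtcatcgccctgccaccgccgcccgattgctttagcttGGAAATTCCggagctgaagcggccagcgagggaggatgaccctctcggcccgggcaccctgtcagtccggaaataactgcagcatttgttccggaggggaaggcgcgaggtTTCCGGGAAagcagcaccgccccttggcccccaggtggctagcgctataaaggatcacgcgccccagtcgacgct
VCAM1, chr1:100719492-100719741, plus strand: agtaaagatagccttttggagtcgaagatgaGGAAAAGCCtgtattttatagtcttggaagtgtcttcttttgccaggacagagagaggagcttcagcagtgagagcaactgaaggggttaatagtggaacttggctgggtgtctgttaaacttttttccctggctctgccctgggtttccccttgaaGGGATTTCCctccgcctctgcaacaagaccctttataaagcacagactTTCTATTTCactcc
CD274, chr9:5450292-5450541, plus strand: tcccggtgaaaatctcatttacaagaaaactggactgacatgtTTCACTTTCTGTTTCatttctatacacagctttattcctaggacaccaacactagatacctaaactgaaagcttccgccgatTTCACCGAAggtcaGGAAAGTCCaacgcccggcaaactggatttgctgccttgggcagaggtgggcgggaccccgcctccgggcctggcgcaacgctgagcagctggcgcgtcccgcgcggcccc
ICOSLG, chr21:44240944-44241193, minus strand: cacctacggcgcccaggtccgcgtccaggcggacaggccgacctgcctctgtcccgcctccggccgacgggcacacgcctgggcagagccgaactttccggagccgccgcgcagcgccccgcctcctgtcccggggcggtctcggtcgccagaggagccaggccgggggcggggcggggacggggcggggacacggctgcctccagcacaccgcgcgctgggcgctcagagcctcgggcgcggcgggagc

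In ICAM1 the kappa B match lies from -186 to -178 relative to the RefSeq start, and the gamma-activated site from -75 to -67. In VCAM1 there are 2 kappa B matches, from -219 to -211 and from -62 to -54, and an IRF element from -14 to -6. CD274 held matches of all 3 kinds, including 2 IRF elements from -207 to -193 that overlap each other, a gamma-activated site from -125 to -117 and a kappa B match from -111 to -103. ICOSLG held none of these letters in the window. No match in these 4 windows overlapped one of another kind. A match is a run of letters and was not examined for binding. Of the printed windows, those of ICAM1, VCAM1 and CD274 hold kappa B letters. ICAM1 was higher in POLDIP2 KO without overlap, VCAM1 had no reads in either line, and CD274 overlapped between the lines. Windows of ICAM3, CD276 and VTCN1, not printed, hold these letters too. ICAM3 was higher in POLDIP2 KO without overlap, CD276 overlapped between the lines, and VTCN1 was close to the floor. The part of these letters in expression was not tested.

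Expression of the ligands ranged from no reads at all to 7374 normalised counts, the highest CD276 library. Per kilobase of the union of exons in GENCODE release 44, CD276, known as B7-H3, was the most abundant in WT, at 1016 ± 72.1 normalised counts per kilobase (mean ± SD, n = 3 libraries, as for all values with ± here). ICAM1 followed at 213 ± 37.5 and PDCD1LG2 at 206 ± 45.3, and their WT libraries overlapped (173 to 248 and 158 to 248.6), so the order of this pair in WT was not resolved. CD274 was next at 116 ± 24.8, then ICAM3 at 27.9 ± 3.64 and ICOSLG at 12.1 ± 2.07, and neighbours in this part of the order did not overlap in WT.

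In POLDIP2 KO the order of the 6 highest was the same, with ICAM1 at 653 ± 262 normalised counts per kilobase and PDCD1LG2 at 243 ± 78.6, now without overlap between the libraries of the pair. CD276 was at 1178 ± 157, CD274 at 86.9 ± 32.6, ICAM3 at 37.001 ± 2.30 and ICOSLG at 26.8 ± 10.01. The levels of ICAM3 and ICOSLG overlapped in POLDIP2 KO, and with the length of the longest transcript in place of the union of exons ICOSLG stood above ICAM3 in both lines.

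At the other end, VCAM1, a ligand best known from inflamed endothelium, had 0 reads in all 6 libraries. With 3 reads as the limit that a count of 0 allows, this corresponds to at most 2.44 to 3.69 normalised counts, depending on the library, and covers counting error only. ICAM2, a ligand mainly of endothelium and platelets, had 2, 3 and 1 recovered reads across the WT libraries, in replicate order, against 1, 2 and 0 across POLDIP2 KO. VTCN1, known as B7-H4, had 1, 2 and 2 reads in WT and 0, 2 and 6 in POLDIP2 KO. These genes are at or close to the floor in both lines, so no fold is given for ICAM2, VCAM1 or VTCN1, and POLDIP2 KO replicate 3 alone lay above 3 reads for VTCN1.

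ICAM5, named telencephalin for its place in forebrain neurons, had 8, 7 and 3 reads in WT and 12, 7 and 14 in POLDIP2 KO. Its normalised counts were 5.90 ± 2.42 and 11.5 ± 5.003, and the libraries of the lines overlapped. With a mean of 8.68 it fell short of the mean of 10 required for testing, as did ICAM2, VTCN1 and VCAM1, so 6 of the 10 genes were tested.

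The lines were compared with limma on log2(normalised count + 1) over the 14684 genes with a mean of at least 10, and a gene was called at a Benjamini-Hochberg adjusted p under 0.05 and a fold change over 1.5. In that test 0 of the 6 tested ligands were called, against 0.17% of all genes (25 of 14684). At an unadjusted limma p under 0.05, 2 of the 6 passed, ICAM1 and ICOSLG, against 6.48% of all genes. In 3 of the 6, ICAM1, ICAM3 and ICOSLG, every POLDIP2 KO library was above every WT library, which was so for 5.46% of all genes, and none of the 6 showed the reverse, which 5.44% of all genes did. The median log2 fold change was 0.31 over the 6 and -0.00029 over all genes tested. The exact permutation test cannot give a p under 0.1 with 3 libraries against 3, and it gave 0.1 for ICAM1, ICAM3 and ICOSLG, 0.2 for CD276, 0.4 for CD274 and 0.5 for PDCD1LG2 (two-sided).

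ICAM1, the inducible ligand for LFA-1 on chromosome 19 of GRCh38 (10271093 to 10286615, plus strand), showed the largest difference. The WT libraries, in replicate order, gave 598, 856 and 746 normalised counts, against 3240.4, 2051 and 1467 for POLDIP2 KO. All 3 POLDIP2 KO libraries lay above all 3 WT libraries, and they were themselves spread over a wider range, with replicate 1 the highest. The means were 733 ± 129 and 2253 ± 904, a log2 fold of 1.56 with a standard error of 0.29 and 95% limits of 0.87 and 2.24, that is 2.94-fold on the scale with 1 added. In limma its p was 0.00105 before adjustment, rank 93 of 14684, and 0.165 after it.

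By replicate number, the log2 difference of ICAM1 was 2.44, 1.26 and 0.98 in pairs 1, 2 and 3, higher in POLDIP2 KO in 3 of 3 pairs. Without POLDIP2 KO replicate 1, the library with the highest COL1A1 and COL1A2, the log2 fold change of ICAM1 was 1.26. Its call depended on the method. With DESeq2, run on recovered reads as a choice made after seeing the data, ICAM1 had an adjusted p of 1.93e-05 and a log2 fold of 1.62 (standard error 0.30), while edgeR's quasi-likelihood test gave it 0.182. DESeq2 called 0.724% of the genes it tested as higher in POLDIP2 KO (118 of 16304), and of the 6 ligands it called ICAM1 and ICOSLG, where edgeR called 0. The study itself used DESeq2 with the same thresholds for adjusted p and fold change, and it names ICAM1 among its upregulated genes.

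ICOSLG (B7-H2; chromosome 21, 44215382 to 44241446, minus strand) gave 275, 195 and 238 normalised counts across the WT libraries, in replicate order, against 741, 448 and 372 across POLDIP2 KO. The lines did not overlap, and replicate 1 was the highest library in either line. The means were 236 ± 40.2 and 520.2 ± 195, a log2 fold of 1.09 with a standard error of 0.28 and 95% limits of 0.42 and 1.76. In limma its p was 0.00618 before and 0.336 after adjustment. The pairs differed by 1.43, 1.20 and 0.64, and without POLDIP2 KO replicate 1 the log2 fold change was 0.80. DESeq2 on the recovered reads gave an adjusted p of 0.0195, and edgeR gave 0.348.

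ICOSLG shares sequence with another locus, so its count is uncertain. GRCh38 holds a second locus near the start of chromosome 21 (5022531 to 5036771, ENSG00000277117), which GENCODE release 44 types as an artifact, and 15.8% of the distinct 31-base words in ICOSLG transcripts also occur in its transcripts. Its RefSeq promoter window shares an unbroken run of 277 bases with that of ICOSLG. In the deposited table the copy had 141, 91.3 and 103 normalised counts in WT and 193, 152 and 119 in POLDIP2 KO, with overlap between the lines and a log2 fold of 0.46 (adjusted p = 0.97 in limma). It therefore took 30.3% to 33.9% of the summed count of both loci in WT and 20.7% to 25.4% in POLDIP2 KO.

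Summed over both loci, ICOSLG had 416, 286 and 341 normalised counts in WT and 934, 599.96 and 492 in POLDIP2 KO, still without overlap. For the sum the log2 fold was 0.92, with 95% limits of 0.29 and 1.55 (limma adjusted p = 0.432). The estimate was smaller for the sum than for ICOSLG alone, and how reads from sequence common to both were assigned cannot be seen in the table. The share of 31-base words found in transcripts of any other gene, the copy included, was 22.2% in ICOSLG. For the other 9 genes it was 0% to 6.03%, the highest in VTCN1, and 3.24% in ICAM1.

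ICAM3, the ICAM that resting leukocytes carry, lies 36997 bases beyond ICAM5 on the opposite strand (chromosome 19, 10333776 to 10339661). It had normalised counts of 86.9, 79.3 and 66.8 in WT and 96.0, 108 and 105 in POLDIP2 KO. The lines did not overlap although the difference was small next to that of ICAM1, with a log2 fold of 0.41 and 95% limits of -0.13 and 0.95 (limma adjusted p = 0.953).

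The PD-1 ligands CD274 and PDCD1LG2 lie 39964 bases apart on chromosome 9. CD274 (5450503 to 5470566, plus strand) gave 404, 593 and 431 normalised counts across the WT libraries, in replicate order, against 372, 483 and 216 across POLDIP2 KO, with means of 476 ± 102 and 357 ± 134. It was the only tested ligand with a lower mean in POLDIP2 KO, and it was lower in 3 of 3 pairs, by -0.12, -0.30 and -0.99 on the log2 scale, while the lines overlapped. In log2 terms this was -0.47, with 95% limits of -1.21 and 0.27 (limma adjusted p = 0.9998), and blocking on replicate number narrowed the interval to -0.98 to 0.05. A decrease to 0.432 of the WT level and an increase of 1.21-fold both lie within the unpaired interval.

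PDCD1LG2 (5510531 to 5571282, plus strand) had normalised counts of 605, 515 and 385 in WT and 798, 557 and 421 in POLDIP2 KO. It was higher in POLDIP2 KO in 3 of 3 pairs, by 0.40, 0.11 and 0.13, but the lines overlapped. In log2 terms this was 0.21, with 95% limits of -0.43 and 0.86 (limma adjusted p = 0.9998), and it was -0.026 without POLDIP2 KO replicate 1, so the direction of the unpaired estimate rests on that library.

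CD276 (chromosome 15, 73683966 to 73714514, plus strand) is a B7 relative that many epithelial cells and tumours carry at high level. Its normalised counts were 5915, 5659 and 5139 in WT and 7374, 5672 and 6326 in POLDIP2 KO, which overlapped. Its log2 fold change was 0.21 with the narrowest interval of the 6 genes, -0.09 to 0.51 (limma adjusted p = 0.981), so an increase of more than 1.42-fold lies outside it.

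**Figure D1:**
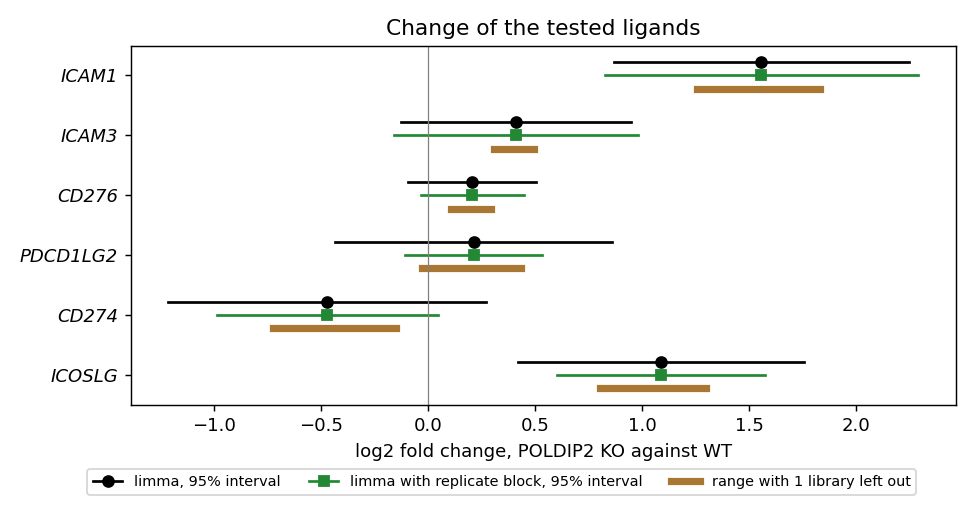
Log2 fold change of the 6 tested ligands between POLDIP2 KO and WT, with the 95% interval from limma in black, the same from the fit blocked on replicate in green, and the range of estimates with 1 library left out as a brown bar. The intervals of ICAM1 and ICOSLG lie above 0 in both fits, and those of ICAM3, CD276, PDCD1LG2 and CD274 include 0.

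The difference of ICAM1 was also described by its ratio to each other tested ligand within a library, chosen after the values were seen. The log2 ratio of ICAM1 to CD274 was 0.56, 0.53 and 0.79 across the WT libraries, in replicate order, against 3.12, 2.08 and 2.75 across POLDIP2 KO. The shift of the mean was 2.03 against CD274, 1.35 against CD276, 1.343 against PDCD1LG2, 1.15 against ICAM3 and 0.47 against ICOSLG, and the lines overlapped in the ratio to ICOSLG only. Each shift is the difference of the values of 2 genes given above, so these ratios are a description with no test.

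**Figure D2:**
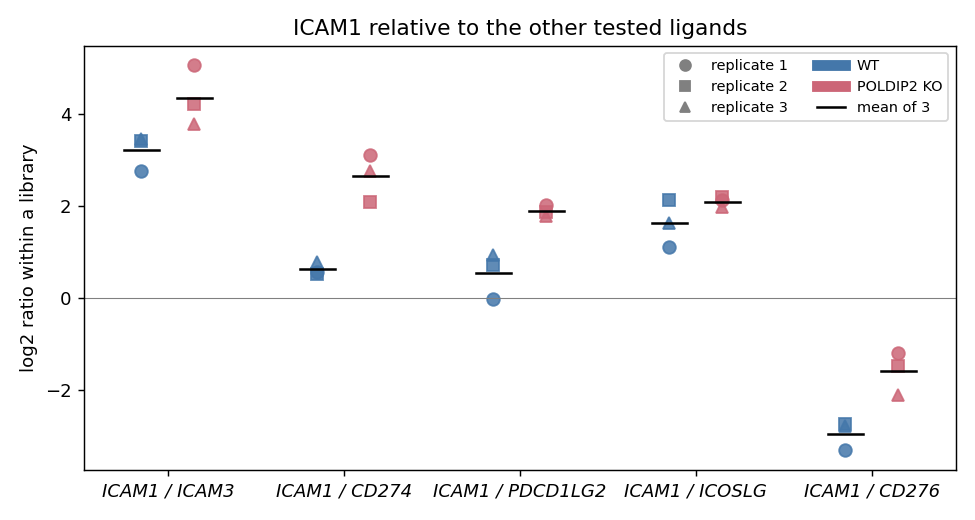
Log2 ratio of the normalised count of ICAM1 (plus 1) to that of each other tested ligand, in every library, with WT in blue, POLDIP2 KO in red, a symbol for each replicate number and the mean of 3 libraries as a bar. The 3 WT ratios to CD274 lie between 0.53 and 0.79 and the 3 POLDIP2 KO ratios between 2.08 and 3.12.

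The genes around these loci were examined for a shared change of the region. ICAM1, ICAM5 and ICAM3 share a segment of chromosome 19 that also holds 5 tested genes of other families, and 3 tested genes were taken on either side. MRPL4, the mitochondrial ribosomal protein gene nearest before ICAM1, differed by a log2 fold of 0.017, with 95% limits of -0.23 and 0.27. Inside the segment, RAVER1, an RNA-binding protein gene, and FDX2, a ferredoxin gene of iron-sulfur cluster synthesis, had -0.019 (-0.42 to 0.39) and -0.016 (-0.31 to 0.28). TYK2, the Janus kinase gene that follows ICAM3, had 0.20 (-0.04 to 0.44), with no overlap between the lines. S1PR2, a receptor gene for sphingosine 1-phosphate, had the largest value of these neighbours, 0.50 (-0.09 to 1.09), higher in POLDIP2 KO in 3 of 3 pairs by 0.61, 0.49 and 0.41, and in the fit blocked on replicate its interval, 0.047 to 0.96, lay above 0 (adjusted p = 0.399 in limma). The others were DNMT1 at 0.09, CDC37 at 0.11, PDE4A at 0.017, ZGLP1 at -0.031 and 2 loci without a gene symbol at -0.36 and -0.061. None of these 11 genes was called, against 0.17% of all genes, and each estimate was below the 1.56 of ICAM1. ICAM4, which lies between ICAM1 and ICAM5, had 0 reads in the WT libraries and 3, 4 and 1 in POLDIP2 KO.

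Around the PD-1 ligands, JAK2, another Janus kinase gene, had a log2 fold change of -0.034 (-0.99 to 0.92), and PLGRKT, the plasminogen receptor gene next to CD274, had -0.16 (-0.52 to 0.20). RLN2, a relaxin gene on the same side, had -0.19. Beyond PDCD1LG2, RIC1 had -0.027, ERMP1 0.41 and KIAA2026 0.12, and none of them was called by limma, against 0.17% of all genes. ERMP1 was higher in POLDIP2 KO in 3 of 3 pairs, with an interval of 0.18 to 0.64 in the fit blocked on replicate (adjusted p = 0.181 in limma).

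**Figure D3:**
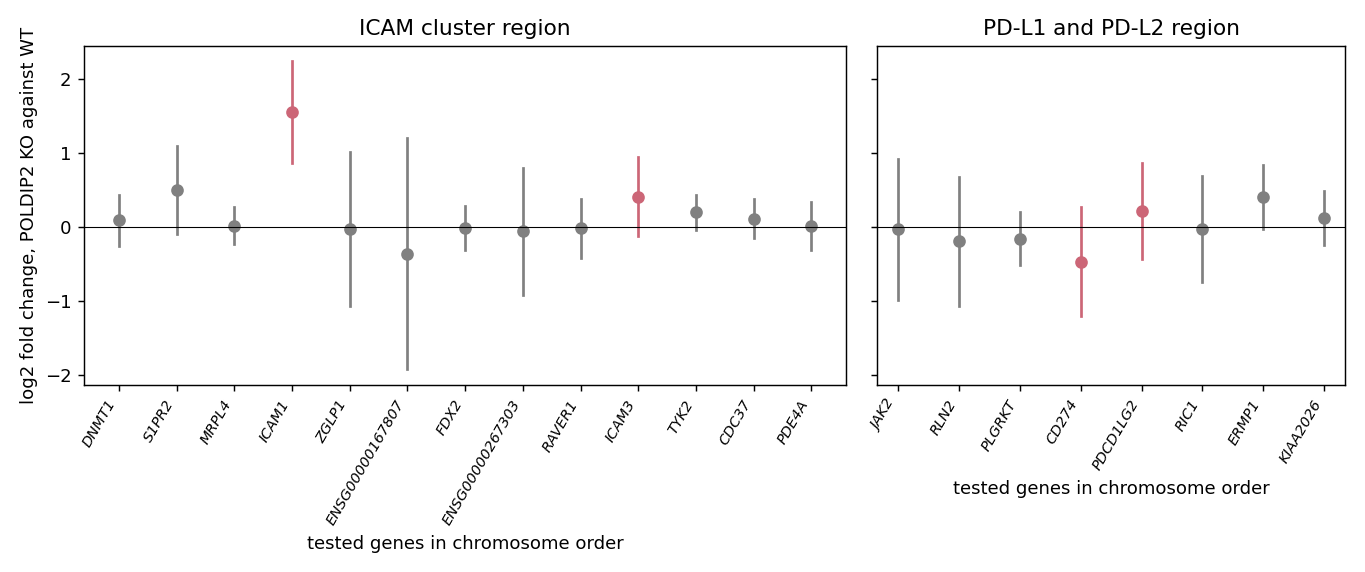
Log2 fold change with its 95% limma interval for tested genes in chromosome order around the ICAM cluster (left) and around CD274 and PDCD1LG2 (right), with the ligands in red. ICAM1 is at 1.56 while RAVER1, FDX2 and MRPL4 lie between -0.019 and 0.017.

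Other molecules of leukocyte contact were taken from a list of 23 adhesion ligands and selectins. SELE and SELP, the endothelial selectins that capture rolling leukocytes, were at 0 in all libraries. Of the 14 genes tested, 0 were called, against 0.17% of all genes, and 2 had an unadjusted limma p under 0.05, against 6.48%, both higher in POLDIP2 KO. In the fit blocked on replicate, 5 of the 14 had an unadjusted p under 0.05, against 11.1% of all genes. Of these, CD47 and CD44 were higher in POLDIP2 KO. SELPLG, MCAM and PVR were lower in every pair, with log2 fold changes of -0.60, -0.41 and -0.20. CD47, the ligand of SIRPA that restrains phagocytes, had normalised counts of 2241, 2238 and 2432 in WT and 3021, 3087 and 3153 in POLDIP2 KO. The lines were well apart relative to the narrow spread, with a log2 fold change of 0.42 (0.21 to 0.64, limma adjusted p = 0.229). DESeq2 gave CD47 an adjusted p of 0.0104 but did not call it, since its fold change was under 1.5. CD34, a sialomucin, had 17.4 ± 4.53 and 32.7 ± 1.55 normalised counts, again without overlap (limma adjusted p = 0.769). The median log2 fold change of the 14 was 0.14.

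The integrins that bind these ligands differed widely in level. ITGB1 had 56751 to 88882 normalised counts in WT and 70584 to 83810.3 in POLDIP2 KO, and ITGA4, its partner in the VCAM1 receptor, 4552 to 7000.2 and 5441 to 8167. ITGB2, the chain common to LFA-1 and Mac-1, reached 1 read per library at most, and ITGAL reached 3. Of the 9 integrin genes listed, 4 were tested and 0 were called, against 0.17% of all genes. In the fit blocked on replicate, 1 of the 4, ITGA4, had an unadjusted p under 0.05, against 11.1% of all genes. ITGA4 was higher in POLDIP2 KO in 3 of 3 pairs, by 0.22, 0.26 and 0.33. Its interval in that fit was 0.083 to 0.46 (adjusted p = 0.27 in limma).

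Among 14 other relatives of the B7 family, CD80 and CD86, the ligands of CD28 and CTLA4, were at 0 in all libraries, as were VSIG4 and BTN1A1. Of the 8 tested, 0 were called by limma, against 0.17% of all genes, and 2 had an unadjusted p under 0.05, against 6.48%. Both were butyrophilins that were higher in POLDIP2 KO without overlap, as 5.46% of all genes were. In the fit blocked on replicate, 4 of the 8 had an unadjusted p under 0.05, against 11.1% of all genes. Of these, BTN3A2, BTN3A3 and VSIR were higher in POLDIP2 KO. NCR3LG1 was lower in every pair, with a log2 fold change of -0.31. BTN3A2 had normalised counts of 779, 883 and 1013 in WT and 1261, 1272 and 1540.1 in POLDIP2 KO, a log2 fold change of 0.61 (0.26 to 0.95, limma adjusted p = 0.289). DESeq2 gave BTN3A2 an adjusted p of 0.0346, its only call in the list. BTN3A3 had a log2 fold change of 0.47 (0.05 to 0.90, limma adjusted p = 0.69). BTN3A1, the member of this subfamily known as the phosphoantigen sensor for gamma delta T cells, overlapped between the lines, with a log2 fold of 0.37 (-0.13 to 0.86).

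Of 15 further ligands with a role in T cell help or inhibition, 7 were tested and 0 called, against 0.17% of all genes. CD40, FGL1 and FASLG were at 0 in every library. CD70, the ligand of CD27, was the only one without overlap between the lines, at 153 ± 17.9 and 191 ± 15.6 normalised counts (limma adjusted p = 0.963). A higher level without overlap was found for 5.46% of all genes. Of 7 lymphocyte receptors listed for the B7 family, ICOS, PDCD1 and NCR3 were at 0 in all libraries, and only TMIGD2 was tested, with a log2 fold of -0.38 (adjusted p = 0.9998 in limma).

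Partners at the membrane were also listed, 21 in all, among them the ERM proteins that anchor the tail of ICAM1, the sheddases ADAM10 and ADAM17, and CMTM6, which keeps PD-L1 from degradation. Of these, 18 were tested and 0 called, against 0.17% of all genes, with a median log2 fold change of 0.06. ELANE, the neutrophil elastase gene, was at 0 in every library. Without overlap between the lines, 1 of the 18 was higher and 2 were lower, against 5.46% and 5.44% of all genes. B4GALT1, a galactosyltransferase, was higher in POLDIP2 KO without overlap, with a log2 fold change of 0.36 (0.05 to 0.67, limma adjusted p = 0.671). ARHGEF26, the exchange factor that acts on RHOG beneath clustered ICAM1, was lower without overlap, with -0.36 (-0.68 to -0.04, limma adjusted p = 0.677). SPOP, the ubiquitin ligase adaptor for PD-L1, did not overlap either, but its log2 fold change was only -0.08 (limma adjusted p = 0.9998).

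The inducers and transcription factors known for ICAM1, VCAM1 and CD274 were 25 genes of the NF-kB, interferon, TNF and IL-1 routes. Of the 24 tested, 0 were called by limma, against 0.17% of all genes, and 0 had an unadjusted p under 0.05, against 6.48%. In the fit blocked on replicate, 4 of the 24 had an unadjusted p under 0.05, IRF1, TNFRSF1A, RELA and STAT3, against 11.1% of all genes, and 0 were called. The log2 fold change was above 0 in 19 of the 24, against 49.9% of all genes, and its median was 0.14. STAT3 was the only one without overlap between the lines, with 2132 ± 267 and 2575 ± 354 normalised counts and a log2 fold change of 0.27 (-0.07 to 0.62, limma adjusted p = 0.932). No overlap in that direction was found for 5.46% of all genes.

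IRF1, an interferon-induced factor that acts on the promoters of both CD274 and VCAM1, was named after its values were seen. It gave 272, 619 and 467 normalised counts across the WT libraries, in replicate order, against 486, 1142 and 849 across POLDIP2 KO. It was higher in POLDIP2 KO in 3 of 3 pairs while the lines overlapped, and its limma adjusted p was 0.83 in the unblocked fit and 0.0725 in the fit blocked on replicate. With DESeq2 and that block together, also a choice made after seeing the data, IRF1 had an adjusted p of 2.41e-05. TNFRSF1A, the TNF receptor gene, also named after its values were seen, had 4200.05 ± 1033 and 5671 ± 1335 normalised counts and was higher in 3 of 3 pairs, by 0.44, 0.50 and 0.37, with an adjusted p of 0.123 in limma blocked on replicate, 0.955 in the unblocked fit and 0.000566 in DESeq2 with the block.

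**Figure D4:**
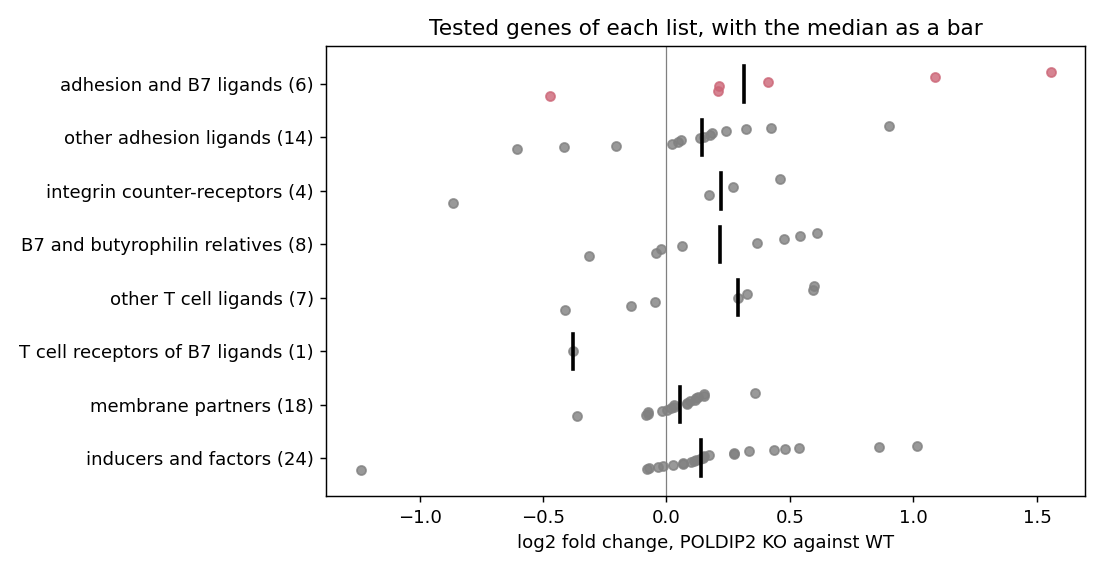
Log2 fold change of every tested gene of the 10 ligands (red) and of the 7 related lists (grey), with the number tested in brackets and the median as a black bar. ICAM1 and ICOSLG are the points farthest to the right, at 1.56 and 1.09, and the medians of the grey lists lie between -0.38 and 0.29.

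The genes whose pattern was closest to that of ICAM1 were found by the root mean square difference of log2 values, centred on each gene's mean, over the 6 libraries. They were LDLRAD2 at 0.17, CFAP251 at 0.26 and NFKBIZ at 0.27, where ICAM1 itself departs from its mean by 0.86 on the same measure. NFKBIZ, an inhibitor-like regulator of NF-kB that is itself induced by inflammatory signals, had 317 ± 24.6 and 924 ± 115 normalised counts and was called by limma (adjusted p = 0.0231). For CD274 the closest were PMEL at 0.079, GABRR2 at 0.10 and CETN4P at 0.13, where CD274 departs from its own mean by 0.45. These are descriptions over 6 libraries chosen from 14684 genes.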

How the data were processed

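The deposited table holds 1 signal value per gene and library. Per the study's methods and processing notes, the authors quantified reads with Salmon 1.8, used tximport to obtain gene counts for GRCh38 and divided these counts by a DESeq2 1.34.0 size factor; the annotation release is not given in the sources used here. Symbols were taken from GENCODE release 44 for 34152 of 37902 genes. Every value was a whole multiple, within 0.001, of the smallest value above 0 in its library, and reads were recovered by division; in WT replicate 2 and POLDIP2 KO replicate 3 that step is close to 1, so the check says little there.

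The libraries are called biological replicates in the labels, and how they were grown is not stated, so p-values measure the spread between these libraries. Each genotype is a single cell line, so p-values do not cover differences between independently made lines. Normalised counts were compared with limma 3.58.1 in R 4.3.3 on log2(value + 1), keeping genes that averaged 10 or more, through lmFit and a trended eBayes, with Benjamini-Hochberg adjustment over all 14684 genes; calls needed an adjusted p under 0.05 and a fold change over 1.5. The added 1 understates the change of low genes. The 3-read floor stands for a count of 0. Recovered reads were tested with edgeR 4.0.16 and with DESeq2 1.42.0, both chosen after seeing the data. The steps were tested on simulated data. Exact permutation tests used scipy 1.17.1.

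Replicate numbers come from the sample titles. Within-line deviations of same-numbered libraries correlated at 0.315, 0.137 and 0.129 across genes, above the limit of 0.1, against -0.259 to 0.147 for other combinations. The 0.147 was WT replicate 3 with POLDIP2 KO replicate 2, above the 0.137 and 0.129 of same-numbered replicates 2 and 3. The numbers were taken to pair the samples, but this pairing is not established for replicates 2 and 3. Results by pair and those of the replicate block, which was an alternative, rest on it.

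The members and lists were chosen with earlier results of these data known. The text names the 10 members, POLDIP2, list members past both thresholds or at 0, up to 3 genes per list and direction with the smallest p without overlap, the 3 nearest patterns to ICAM1 and CD274, and the tested neighbours of both clusters; other genes were named after their values were seen. CTTN, of the membrane list, was not analysed here, nor were antisense transcripts at ICAM1. The alternatives tried are listed with their effect in the closing section. One listed marker is not reported here.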

Additional observations from a re-analysis of the deposited data

How the results depend on the processing

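Among the alternatives with all libraries (0.5 or 5 as pseudocount, all genes unfiltered, a minimum mean of 50, recentred libraries, quantile normalisation, eBayes without trend and the replicate block), limma called 0 of the tested ligands in each, and the log2 fold change stayed within 1.55 to 1.56 for ICAM1, with adjusted p values from 0.133 to 0.27, and within 1.08 to 1.11 for ICOSLG, with 0.122 to 0.392. With the replicate block the adjusted p was 0.133 for ICAM1 and 0.122 for ICOSLG, with 30 genes called over the whole table, and it changed no call of a ligand or of a pathway list gene, while it called the marker COL1A1 (adjusted p = 0.0436). With each library left out, the log2 fold change was 1.26 to 1.83 for ICAM1, 0.80 to 1.30 for ICOSLG, 0.31 to 0.50 for ICAM3, -0.72 to -0.15 for CD274, 0.11 to 0.30 for CD276 and -0.026 to 0.43 for PDCD1LG2, whose reversal came without POLDIP2 KO replicate 1; the cause was not tested.

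The number of genes called over the whole table was 25, against 16 with a mean of at least 50, 0 to 10 with each library left out (10 without replicate 1 of either line, 0 without any other library) and 5 without both replicate 1 libraries, an alternative added after seeing the data. DESeq2 on the recovered reads called 270 genes, 2 of the ligands and 1 gene of the B7 relatives (BTN3A2), and with the replicate block 394 genes, 2 of the ligands, 1 B7 relative and 1 inducer (IRF1). The log2 fold changes in these fits were 1.62 and 1.55 for ICAM1 and 1.14 and 1.10 for ICOSLG. Ranks per kilobase changed for 2 genes in either line with the longest transcript, and without length correction for 2 in WT and 3 in POLDIP2 KO. On 1 strand only, 3 in place of 6 of the 8 ligands with a window held a kappa B match and 0 in place of 2 an IRF element. Among all windows the shares were 11.2% in place of 20.1% and 4.02% in place of 8.11%. These are shares per window, whereas the 8 ligands had 11 windows between them. Depth limits VCAM1, ICAM2, ICAM5 and VTCN1, for which no change could be measured.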
